A study of Homo sapiens with 3 samples.

Results

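The 10 genes described here encode the urokinase-type plasminogen activator PLAU, its receptor PLAUR, the tissue-type activator PLAT, the matrix metalloproteinases MMP1, MMP2, MMP14 and MMP15, and the metalloproteinase inhibitors TIMP1, TIMP2 and TIMP3. They were taken by gene symbol, and all 10 were found among the 25270 symbols listed. The set was chosen with earlier results of these data known. PLAU was selected on its own values in these libraries, namely its rise in HepG2/metR cells and its fall with oxamate, so its changes are given as a description. Total RNA was sequenced from 3 cultures of the hepatocellular carcinoma line HepG2. The first, HepG2/wild, was the untreated parental line, and the second, HepG2/metR, was the population that outlived an exposure of more than 5 months to metformin, a complex I inhibitor, and that the study used as a lactate-producing, hyper-glycolytic model. The last culture was HepG2/metR given 40 mM of the lactate dehydrogenase inhibitor oxamate for 24 h. Each condition had 1 library (n = 1), so no difference has a replicate check, no error can be attached to a value and no p-value is given. Parental cells with oxamate were not among the samples, and the selection, any metformin still in the medium and the history of the culture cannot be told apart.

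Plasminogen activators are secreted serine proteases that cut plasminogen into plasmin, a protease that degrades fibrin and matrix proteins. Urokinase does so while bound to its lipid-anchored receptor at the cell surface, and serpin inhibitors trap it there. Matrix metalloproteinases are zinc enzymes made as inactive precursors. MMP14 and MMP15 are anchored in the membrane, MMP1 and MMP2 are secreted, and TIMP proteins block their active sites. TIMP2 has a second role, since a complex of MMP14 and TIMP2 holds the MMP2 precursor for cleavage. The question asked of these genes is how matrix-degrading components differ between parental, hyper-glycolytic and oxamate-treated cells, of which the study measured migration and invasion.

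Values are FPKM, a fragment count per length of transcript and sequencing depth, computed back from the deposited log2(FPKM + 1) values, and log2 changes are differences of the deposited values. From the smallest values of genes with a single transcript, which lie at steps of 1 fragment, the libraries were estimated to hold about 22400000 fragments in HepG2/wild, 26300000 fragments in HepG2/metR and 27100000 fragments with oxamate. Of 9 hepatocyte marker genes, 9 reached 1 FPKM in HepG2/wild and 2 did so in each HepG2/metR library, and their summed level was 20065, 13.6 and 10.96 FPKM in HepG2/wild, HepG2/metR and HepG2/metR with oxamate. The liver label was therefore borne out by its defining markers in the parental library and not in the other libraries. For 10 fibroblast or stellate markers the sums were 27.8, 68.5 and 74.98 FPKM, with 3, 4 and 4 of the 10 at 1 FPKM or more. THY1, at 53.3 and 48.5 FPKM, made up most of the sum in the HepG2/metR libraries, while COL1A2, COL3A1, PDGFRA, DCN and FAP were at most 0.293 FPKM in every library. Of the rest, ACTA2 was at 22.5, 7.36 and 11.2 FPKM, PDGFRB at 3.43, 3.66 and 7.26, LUM at 0.172, 3.25 and 6.69 and COL1A1 at 1.22, 0.494 and 0.677, and 6 endothelial markers summed to at most 0.347 FPKM. In 7 leukocyte markers the sums were 3453, 43.7 and 31.9 FPKM, and the defining gene PTPRC was at most 0.0430 FPKM, the sums being carried by LYZ and CD68. The part of these marker differences in the results below was not tested.

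Of the 10 genes, 8 passed the filter of a mean of at least 1 FPKM over the libraries. In HepG2/metR against HepG2/wild, 6 of the 8 rose at least 2-fold (PLAU, PLAUR, PLAT, MMP14, TIMP1 and TIMP2) and 2 fell at least 2-fold (MMP15 and TIMP3). Over all 12210 genes kept, 16.6% were at least 2-fold higher and 17.6% at least 2-fold lower. The median log2 change was 2.09 over the 8 genes and 0.015 over all genes kept. The count of rises and this median include PLAU, whose rise was fixed by its choice. PLAT, at 0.413 FPKM in HepG2/wild, passed the filter only through the HepG2/metR libraries, and MMP2, listed at 0 in those, did not pass. The set was also chosen with earlier results known, so these figures are a description. With oxamate, 1 of the 8 genes, PLAU, was at least 1.5-fold lower than in untreated HepG2/metR, against 3.82% of all genes kept, and 0 were at least 1.5-fold higher, against 4.30%. PLAU alone passed both limits, against 0.958% of the genes kept, and nothing is read from this, because PLAU was chosen for that pattern. The genome-wide split with oxamate was 525 higher and 466 lower genes as deposited, 664 and 375 under upper-quartile scaling, and 1195 and 192 under total scaling, in which all libraries are brought to an equal summed FPKM.

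**Figure D1:**
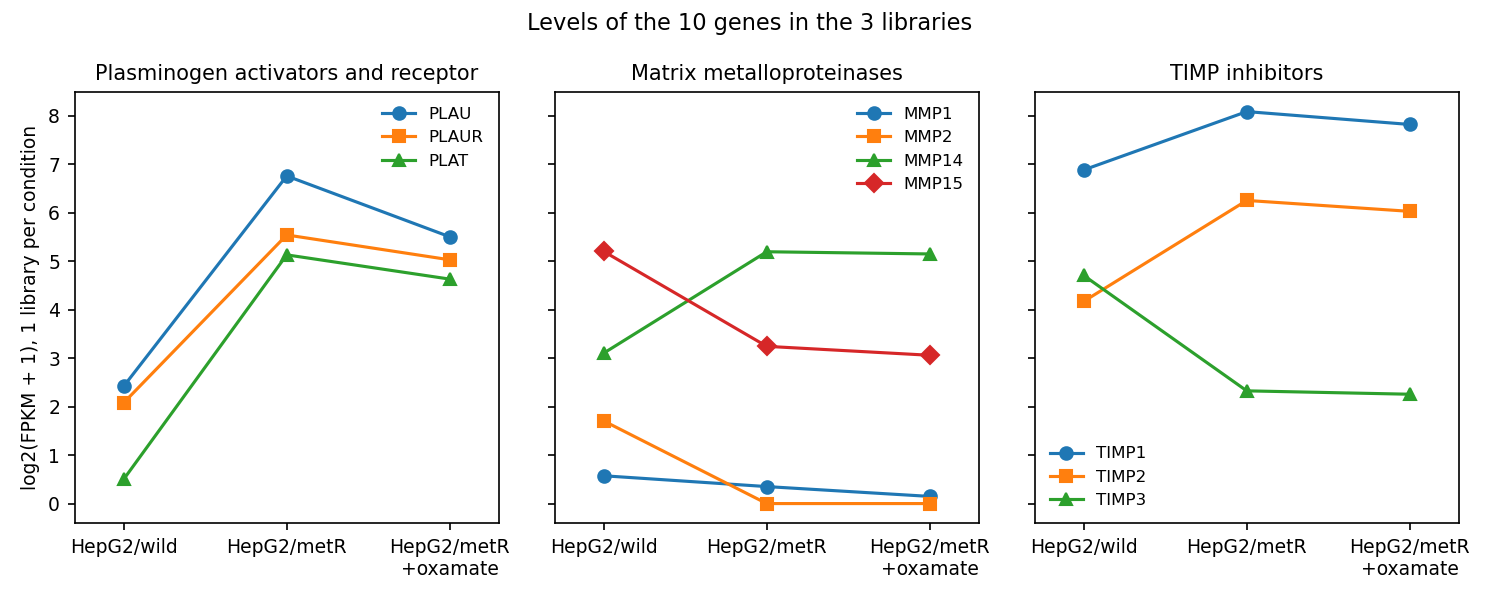
Level of each gene as log2(FPKM + 1) in the HepG2/wild, HepG2/metR and HepG2/metR+oxamate libraries, 1 point per library, with lines joining the points of a gene and no error bars because n = 1. PLAU, PLAUR and PLAT lie high in both HepG2/metR libraries, MMP14 and MMP15 change places, and TIMP3 drops while TIMP1 and TIMP2 rise.

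Short stretches from the promoters of the genes that carry these differences are shown first, because the activator genes are textbook targets of AP-1 and ETS factors and the levels of those factors are given further on. The RefSeq promoter table (build GRCh38.p14, 250 bases before to 50 after each start) held windows for 6 of the 10 genes, with 2 starts for PLAU. It held none for PLAT, MMP1, MMP2 and TIMP2. Each line gives 30 bases, 5′ to 3′ on the strand of the gene, with the matched motif in capitals:
PLAUR, AP-1 motif: atcacaactccaTGAGTCAgggccgagcca
PLAU, GC box motif: agggagGGGCGGcgccgGGGCGGgccctga
MMP14, GC box motif: aggagggcactgGGGCGGggacggaggaga
TIMP1, ETS motif: agtaatgcatccAGGAAGcctggaggcctg
MMP15, GC box motif: tggggcaCCGCCCccggtccCCGCCCgggt
TIMP3, GC box motif: atccggGGGCGGccCCGCCCcgttacccct

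These stretches lie at chr19:43670338-43670367 (minus strand) for PLAUR, chr10:73911075-73911104 for PLAU, chr14:22836507-22836536 for MMP14, chrX:47582337-47582366 for TIMP1, chr16:58025669-58025698 for MMP15 and chr22:32801533-32801562 for TIMP3, the last 5 on the plus strand. In GENCODE release 29 the stretches of MMP14 and TIMP3 overlap no exon. Those of PLAUR, TIMP1 and MMP15 lie before the start used here but inside an exon of a GENCODE transcript of the same gene. The starts used were not matched to GENCODE transcripts. The PLAU stretch lies in an exon of C10orf55, which runs on the opposite strand, and partly in an exon of a PLAU transcript. The motifs, each searched on both strands, were TGAGTCA for the AP-1 factors, TGACGTCA for the cyclic AMP response element, AGGAAG for the ETS factors, TATAAA for the TATA motif and GGGCGG for the GC box. None of them contains another. Among all 35116 windows of this length, 4.95% held the AP-1 motif, 1.85% the cyclic AMP motif, 33.6% the ETS motif, 11.5% the TATA motif and 45.0% a GC box.

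Within these windows PLAUR was the 1 gene of the 6 with an AP-1 match, which began 186 bases before its start. Neither the cyclic AMP motif nor the TATA motif matched in any of the 7 windows. Sequence outside the windows was not searched, so an element further from a start would not be seen. The ETS motif matched once each in the windows of PLAUR, TIMP1 and the downstream start of PLAU. GC boxes numbered 5 each in MMP15 and TIMP3, 3 at the downstream start of PLAU, 2 in TIMP1, 1 in MMP14 and 0 in PLAUR and at the upstream start of PLAU. The windows of MMP15 and TIMP3 were also the richest in G and C, at 75.3% and 72.7%, with 39 and 31 CpG pairs, against a median of 58.7% and 14 pairs over all windows. The other windows ranged from 48.7% and 5 CpG pairs at the upstream start of PLAU to 70.0% and 28 pairs at its downstream start. A match describes these letters and not a bound site, and a tie between the letters and the changes in level was not tested.

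PLAU was listed at 4.35 FPKM in HepG2/wild, 107 in HepG2/metR and 44.4 in HepG2/metR with oxamate. It was higher in both HepG2/metR libraries than in the parental one, and the oxamate library lay between the others. Its log2 change was 4.34 in HepG2/metR and -1.26 with oxamate, which is 20.3-fold and 2.39-fold on the log2(FPKM + 1) scale. Among the genes kept, its level moved from percentile 27.3 in HepG2/wild to 94.1 in HepG2/metR and 86.6 with oxamate. Among 1990 genes that rose 2-fold or more in HepG2/metR, small-RNA genes left out, 7 others changed with oxamate by at least as much in the same direction. Nothing is read from this rank, because PLAU was chosen for its rise and its fall. C10orf55, which overlaps PLAU on the other strand, was listed at 0, 0.352 and 0.0861 FPKM in the same order, and whether reads were counted by strand is not given in the sources used here.

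PLAUR, the receptor that holds urokinase at the membrane, was listed at 3.22 FPKM in HepG2/wild, 45.6 in HepG2/metR and 31.7 with oxamate. Its log2 change was 3.46 in HepG2/metR and -0.51 with oxamate, short of the 1.5-fold limit of 0.58. PLAT, which activates plasminogen mainly on fibrin, was listed at 0.413, 34.1 and 23.8 FPKM. Its log2 change in HepG2/metR, 4.63, was the highest of the 10 genes, and with oxamate it was -0.50. The parental value of PLAT rests on an estimated 25 fragments, and without a pseudocount the log2 change in HepG2/metR became 6.37.

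PLAUR and PLAT were lowest in the parental library, highest in HepG2/metR and in between with oxamate. PLAU had the same order, but it was chosen for that order. The level of PLAU was 10.5 times that of PLAT in HepG2/wild, 3.15 times in HepG2/metR and 1.87 times with oxamate. Its ratio to the receptor PLAUR went from 1.35 to 2.35 and back to 1.40. PLAUR and PLAT stayed short of the 1.5-fold limit with oxamate under all 6 pseudocounts and scalings, at -0.53 to -0.34 for PLAUR and -0.52 to -0.33 for PLAT, while PLAU stayed past it, at -1.27 to -1.09.

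**Figure D2:**
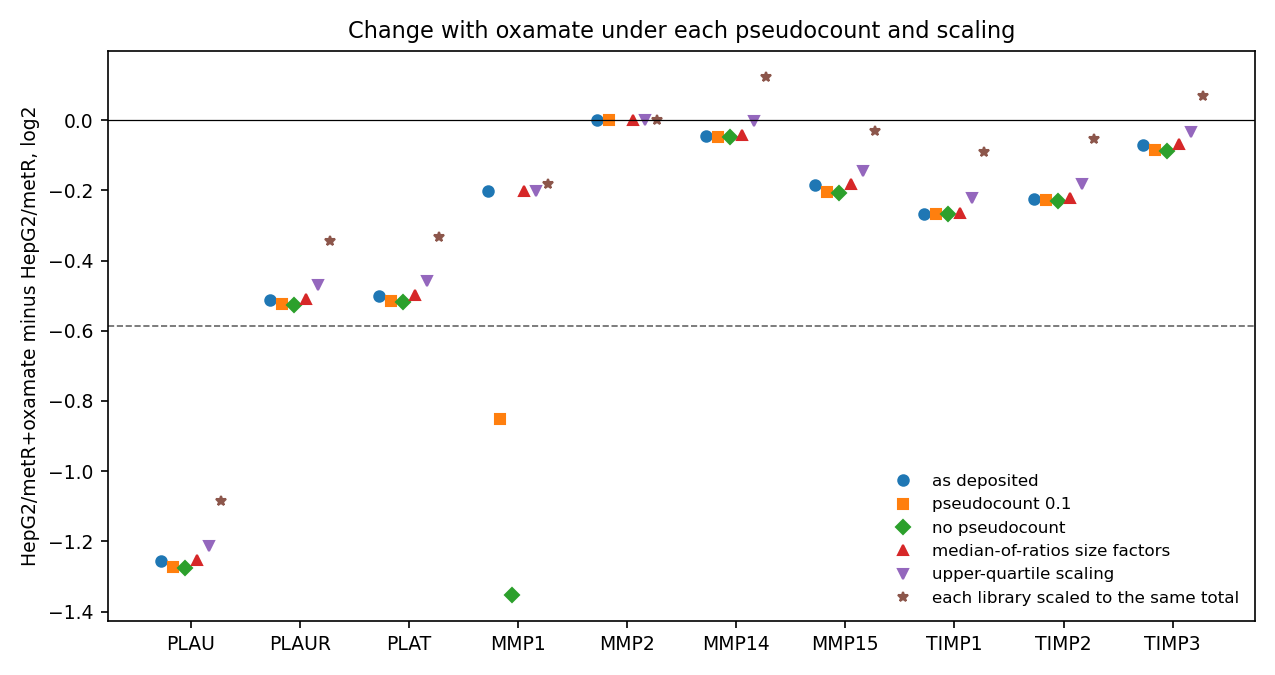
Log2 change with oxamate (HepG2/metR+oxamate minus HepG2/metR) of each gene as deposited and under 5 other pseudocounts or scalings, 1 point per setting, with the dashed line at a 1.5-fold decrease. PLAU lies past the line in every setting, PLAUR and PLAT lie between the line and 0, and MMP1, which rests on an estimated 14 and 6 fragments, moves from -0.20 to -1.35 with the pseudocount.

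MMP14, a membrane-anchored collagenase that cuts the MMP2 precursor, was listed at 7.59 FPKM in HepG2/wild, 35.7 in HepG2/metR and 34.5 with oxamate. Its log2 change was 2.09 in HepG2/metR and -0.05 with oxamate, and the second turned to 0.12 under total scaling, which moved the median of all genes kept from 0.02 to 0.17. MMP15, its closest membrane-anchored relative among the 10 genes, went the opposite way in HepG2/metR, from 35.9 to 8.48 FPKM, and was at 7.34 with oxamate. Its log2 change was -1.96 in HepG2/metR and -0.18 with oxamate. The ratio of MMP14 to MMP15 was thus 0.212 in HepG2/wild, 4.21 in HepG2/metR and 4.70 with oxamate.

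MMP2, the secreted gelatinase, was listed at 2.26 FPKM in HepG2/wild, an estimated 189 fragments, and at 0 in HepG2/metR and with oxamate. MMP1, the interstitial collagenase, was listed at 0.488, 0.275 and 0.108 FPKM, an estimated 22, 14 and 6 fragments. Both genes stayed under the filter, MMP2 because it was present in 1 of the 3 libraries, and neither is counted above. WTAPP1, which overlaps MMP1 on the opposite strand, was listed at 0.0168, 0.486 and 0.679 FPKM, the reverse order. The level of the 4 metalloproteinases summed to 46.2 FPKM in HepG2/wild, 44.4 in HepG2/metR and 42.0 with oxamate, so their total differed little while the leading gene changed from MMP15 to MMP14.

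TIMP1, a broad inhibitor of secreted metalloproteinases, had the highest level of the 10 genes in every library, at 117 FPKM in HepG2/wild, 271 in HepG2/metR and 225 with oxamate. Its log2 changes were 1.20 and -0.27. TIMP2 was listed at 17.0, 75.4 and 64.3 FPKM, with log2 changes of 2.08 in HepG2/metR and -0.23 with oxamate. TIMP3, which binds to the matrix and also inhibits ADAM proteases, was listed at 25.1 FPKM in HepG2/wild, 4.01 in HepG2/metR and 3.78 with oxamate. It had the largest decrease of the 8 genes kept, with a log2 change of -2.38, and changed by -0.07 with oxamate, or 0.07 under total scaling. SYN3, which overlaps TIMP3 on the opposite strand, was listed at 0.919, 0 and 0 FPKM, and SYN1, which overlaps TIMP1, at no more than 0.0779.

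The inhibitors summed to 159 FPKM in HepG2/wild, 351 in HepG2/metR and 294 with oxamate. TIMP1 made up 73.5%, 77.4% and 76.8% of that sum, whereas TIMP2 went from 10.7% to 21.5% and 21.9% and TIMP3 from 15.8% to 1.15% and 1.29%. The summed inhibitor level was 3.45 times the summed metalloproteinase level in HepG2/wild, 7.89 times in HepG2/metR and 6.99 times with oxamate. For MMP14 and TIMP2, the partners in MMP2 cleavage, the ratio was 0.446, 0.473 and 0.537, so both were higher in HepG2/metR by similar amounts. With n = 1 the order of genes whose levels lie close, such as TIMP3 and TIMP2 in HepG2/wild or MMP14 and PLAT in HepG2/metR, cannot be told from the spread between cultures.

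The sign of PLAU with oxamate was fixed by its choice, so it is left out here. The other 7 genes kept ranged with oxamate from -0.51 for PLAUR to -0.05 for MMP14 as deposited, with a median log2 change of -0.23 against 0.02 over all genes kept, and none passed the 1.5-fold limit in either direction. All 7 lay below 0, as did 45.6% of all genes kept. Under total scaling 5 of the 7 lay below 0, with a median of -0.05 against 0.17 over all genes kept, and MMP14 and TIMP3 lay above 0. The share of 45.6% belongs to the deposited values, and the share under total scaling was not computed.

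**Figure D3:**
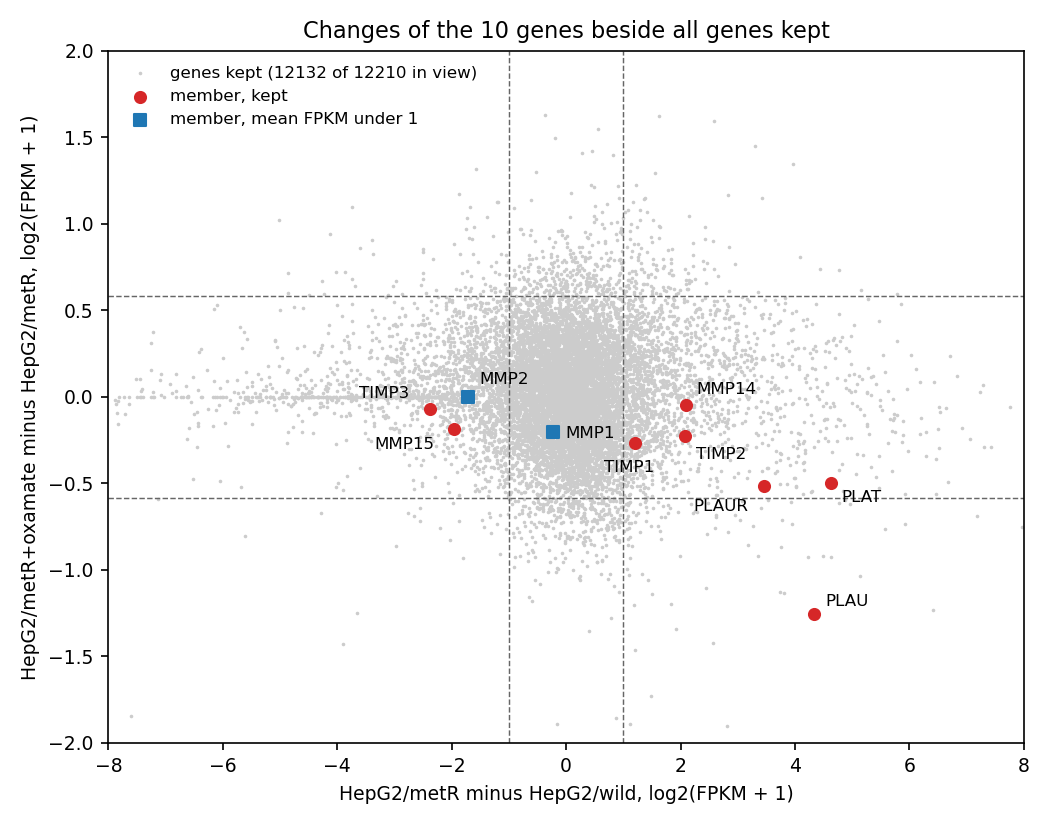
Each point is a gene, with its log2(FPKM + 1) difference HepG2/metR minus HepG2/wild on the x axis and HepG2/metR+oxamate minus HepG2/metR on the y axis, over the genes kept (grey) and the 10 genes (red, or blue squares where the mean was under 1 FPKM). Dashed lines mark 2-fold on x and 1.5-fold on y, and a few grey points lie outside the axes. PLAU is the 1 labelled gene in the lower right corner, PLAUR and PLAT lie just above the line, and TIMP3 and MMP15 lie on the left.

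The genes that oppose or localise the activators were read from lists chosen with earlier results of these data known. Of 7 inhibitors of plasminogen activators and plasmin, all kept by the filter, 2 rose at least 2-fold in HepG2/metR and 4 fell by as much. Over all genes kept these shares were 16.6% and 17.6%. SERPINB2, an inhibitor of urokinase that rose, was listed at 0.0965 FPKM in HepG2/wild, 9.11 in HepG2/metR and 6.50 with oxamate, and SERPINE2, protease nexin 1, at 22.4, 41.0 and 59.2 FPKM. The 4 that fell were nearly absent from the HepG2/metR libraries. They and SERPINB2 passed the filter only through the libraries in which they were high. A2M, a plasma inhibitor of many protease classes, was listed at 942, 0.0227 and 0.118 FPKM, SERPINF2, the plasmin inhibitor, at 195, 0.288 and 0.598, SERPINA5, the protein C inhibitor, at 212, 0 and 0, and SERPINI1, neuroserpin, at 17.8, 0.463 and 0.452. With oxamate 0 of the 7 inhibitors passed 1.5-fold in either direction, against 3.82% lower and 4.30% higher over all genes kept. SERPINE2 passed upward under total scaling, and SERPINF2 and A2M, both under 1 FPKM in the HepG2/metR libraries, with a pseudocount of 0.1 or none.

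PLG, the gene for plasminogen itself, was listed at 0.365 FPKM in HepG2/wild and at 0 in both HepG2/metR libraries. Of the proteins that bind plasminogen or tissue activator at the surface, 4 were kept. Of these, 2 rose past 2-fold in HepG2/metR, against 16.6% of all genes kept. ANXA2, annexin A2, was listed at 66.1, 2268 and 1806 FPKM, a log2 change of 5.08 and then -0.33. Its partner S100A10 was listed at 65.1, 215 and 225 FPKM. PLGRKT, a plasminogen receptor, differed little at 16.01, 18.0 and 15.8 FPKM. ENO1, a glycolytic enzyme that also binds plasminogen at the surface, was listed at 795, 1005 and 619 FPKM. It was the 1 gene of this list past 1.5-fold with oxamate, downward, against 3.82% of all genes kept. Its log2 change was -0.70, a call lost under total scaling.

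Among 11 partners and clearance receptors of the urokinase receptor, 10 were kept. In HepG2/metR 4 rose and 3 fell past 2-fold, against 16.6% and 17.6% of all genes kept. Of these, MRC2, ITGA5 and VTN passed the filter only through the libraries in which they were high. With oxamate 0 passed 1.5-fold, against 3.82% lower and 4.30% higher over all genes kept. EGFR and LRP1 passed upward under total scaling and VTN with a pseudocount of 0.1 or none. The integrin subunits ITGA3 and ITGA5, which can associate with PLAUR, were listed at 1.88, 212 and 194 FPKM and at 0.343, 13.4 and 10.95 FPKM, and the growth factor receptor EGFR at 2.66, 29.1 and 42.5 FPKM. The genes lower in HepG2/metR were VTN, the matrix ligand vitronectin, at 83.7, 0.324 and 0.544 FPKM, IGF2R, the mannose 6-phosphate receptor, at 64.1, 10.8 and 12.4 FPKM, and LRP1, the endocytic receptor that clears urokinase bound to its inhibitor, at 27.96, 8.74 and 13.1 FPKM. PLAUR and LRP1 thus differed in opposite directions in HepG2/metR, with log2 changes of 3.46 and -1.57. This contrast holds for LRP1 and not for every receptor of the list. MRC2 rose as PLAUR did, with a log2 change of 2.94, whereas IGF2R fell, with a log2 change of -2.47.

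The family held 20 other metalloproteinase genes, of which 13 stayed under 1 FPKM in every library, 5 of these listed at 0 throughout. Of the 6 kept, 4 rose and 2 fell past 2-fold in HepG2/metR, against 16.6% and 17.6% of all genes kept. Each of the 6 passed the filter only through the libraries in which it was high. With oxamate 0 passed 1.5-fold, against 3.82% lower and 4.30% higher over all genes kept. MMP9, the second gelatinase, was listed at 0, 3.40 and 2.85 FPKM, the reverse of MMP2. The membrane-anchored MMP16 and MMP24 were listed at 0.0399, 2.23 and 3.50 FPKM and at 0.395, 3.75 and 4.20 FPKM, and MMP19 at 0.0928, 2.49 and 1.99 FPKM. MMP3, stromelysin-1, and MMP11, stromelysin-3, were listed at 4.56, 0.168 and 0.636 FPKM and at 5.17, 0.264 and 0.403 FPKM. None of the 6 had a mean of 5 FPKM over the libraries, and without a pseudocount MMP3, MMP11 and MMP16 passed 1.5-fold upward with oxamate, as did MMP16 under total scaling.

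Of 8 other inhibitors and activators of the metalloproteinases, 6 were kept. In HepG2/metR 2 rose and 2 fell at least 2-fold, against 16.6% and 17.6% of all genes kept. Of these, CD44, SPOCK1 and PCSK6 passed the filter only through the libraries in which they were high. With oxamate 0 passed 1.5-fold, against 3.82% lower and 4.30% higher over all genes kept, and FURIN passed upward under total scaling. CD44, a hyaluronan receptor that docks MMP14 and MMP9 at the surface, was listed at 0.152, 248 and 238 FPKM, and SPOCK1, a proteoglycan, at 0.0882, 1.38 and 1.79 FPKM. FURIN, the convertase that activates the MMP14 precursor, was listed at 54.2 FPKM in HepG2/wild, 13.1 in HepG2/metR and 18.1 with oxamate, the opposite of its substrate in HepG2/metR, and the related convertase PCSK6 at 28.2, 0 and 0.0158 FPKM. The metalloproteinase inducer BSG was listed at 409, 260 and 222 FPKM, and RECK, a membrane inhibitor, at 1.34, 1.22 and 1.09 FPKM.

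**Figure D4:**
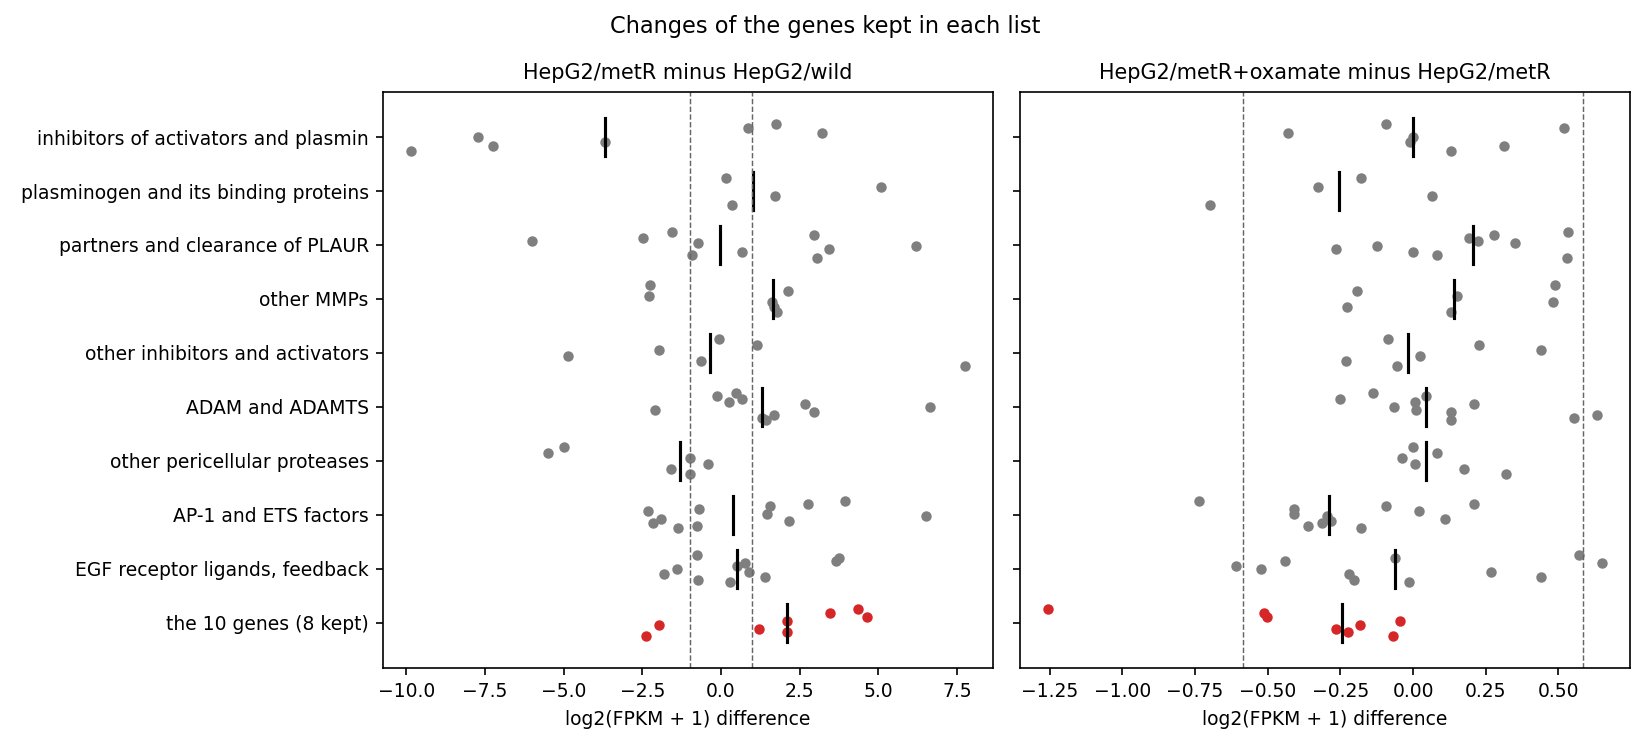
Log2(FPKM + 1) differences of the genes kept in each list (grey) and of the 8 genes kept of the 10 described (red), for HepG2/metR minus HepG2/wild on the left and HepG2/metR+oxamate minus HepG2/metR on the right, with a black bar at each median and dashed lines at 2-fold and 1.5-fold. The left panel spans from A2M at -9.85 to CD44 at 7.76. On the right the lowest point is PLAU at -1.26, which was chosen for its fall.

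AP-1 and ETS factors are known to bind the promoters and enhancers of PLAU, PLAUR and several metalloproteinase genes. Of 14 such factors 12 were kept, and 6 rose and 4 fell past 2-fold in HepG2/metR. Over all genes kept these shares were 16.6% and 17.6%. Of the factors called, ETS1, ETV1 and ELF3 passed the filter only through the libraries in which they were high. FOSL1, which encodes the AP-1 subunit FRA-1, was listed at 11.5 FPKM in HepG2/wild, 192 in HepG2/metR and 115 with oxamate. Its log2 changes were 3.95 and -0.74, and it was the 1 factor past both limits, against 0.958% of all genes kept. Under total scaling it no longer passed the limit for oxamate. FOSL2 was listed at 4.10, 33.7 and 39.1 FPKM, and ETS1 at 0.446, 132 and 107 FPKM. The factors with the largest decreases in HepG2/metR were JUND, at 23.6, 3.92 and 3.99 FPKM, ETV4, at 91.3, 19.8 and 15.8 FPKM, and ETS2, at 19.2, 4.34 and 4.76 FPKM. No factor binding or activity was measured here.

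FOSL1 was the gene whose pair of changes lay nearest to that of PLAU among 6496 candidates with a mean of at least 10 FPKM. The distance was 0.65 on the log2 scale over the 3 libraries. The next were SPARC, a secreted matrix protein, at 27.4, 552 and 376 FPKM, and TGM2, a protein cross-linking enzyme, at 15.7, 328 and 225 FPKM. They were followed by IFI27L2, at 5.01, 105 and 70.5 FPKM, and CD82, a tetraspanin, at 0.194, 31.6 and 20.3 FPKM. Of the 5, FOSL1 and CD82 passed 1.5-fold with oxamate as deposited, with log2 changes of -0.74 and -0.61, and every one changed less with oxamate than PLAU did. PLAU was chosen for this pair of changes, so the order of these genes and the larger oxamate change of PLAU are a description. A tie between FOSL1 and PLAU was not tested.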

How the data were processed

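RNA-seq of HepG2/wild, HepG2/metR and HepG2/metR with oxamate was used, 1 library each. The authors deposited log2 values, 1 per gene symbol and library, in the form log2(FPKM + 1). Per the labels, the submitters' processing notes name STAR 2.5.1b, FastQC 0.11.5, Cufflinks 2.2.1 and the build hg19, without roles. The annotation and filters are not given in the sources used here.

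Deposited values were subtracted without further scaling, and genes with a mean of at least 1 FPKM were kept. Fold limits of 2 (HepG2/metR) and 1.5 (oxamate) follow the study's methods. No test was possible with 1 library per group. One gene of the inhibitor list is counted but not reported here by name. The members and lists were chosen with earlier results of these data known. Named were the 10 members, all genes kept of lists with up to 8 such genes, otherwise the 3 largest rises and falls past 2-fold and the 2 largest past 1.5-fold with oxamate, at a mean of at least 5 FPKM, and the 5 genes nearest to PLAU by Euclidean distance of the 2 changes. C10orf55, WTAPP1, SYN1 and SYN3 were added because GENCODE release 29 places them over members, PLG for its role, and single cell type markers from the fixed marker lists. MRC2, ETV1 and ELF3 were named after their values were seen.

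Depth was estimated from genes with 1 GENCODE transcript over 800 bases listed under 0.2 FPKM, as the most frequent product of FPKM and length. That step was least clear in HepG2/wild. There the density at 2 fragments was 0.812 of that at 1, against 0.504 in HepG2/metR and 0.442 with oxamate. Fragments per gene use its longest coding transcript and are approximate. Coordinates belong to GRCh38.p14, not to the files' build. The calculation of the calls was tested on simulated data with known folds past the limits, set in well-expressed genes and with very little spread. This checks the arithmetic and not how reliable the calls are. With no replicate spread, a recomputed change of a gene counted as moved when it crossed its limit or shifted by 1.5-fold or more. Python 3.11, numpy 2.4.6, pandas 2.3.3 and matplotlib 3.10.9 were used.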

Additional observations from a re-analysis of the deposited data

How the results depend on the processing

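Values were recomputed with a pseudocount of 0.1 or none, median-of-ratios, upper-quartile or total scaling, no filter or a mean of at least 5 FPKM, and 2-fold or 1.5-fold in both comparisons. The counts of the 10 genes past each limit stayed within 1.5 times the values above in all 45 recomputations, with MMP2 added to the lower genes without the filter. PLAU changed by 4.33 to 4.63 in HepG2/metR and by -1.27 to -1.09 with oxamate. Of 98 recomputed changes of single genes, 6 moved by 1.5-fold or more or crossed a limit, in PLAT, MMP1 and MMP2 under other pseudocounts, and 0 called changes turned sign. Of 405 recomputed list counts, 47 moved. Over all genes kept, the 466 genes lower with oxamate became 192 under total scaling and 64 at 2-fold, the 525 higher became 1018 and 1109 with a pseudocount of 0.1 or none, 1195 under total scaling, 271 at a mean of 5 FPKM and 66 at 2-fold. The 117 past both limits became 61, 35 and 195 under total scaling, 2-fold and 1.5-fold in both, and at a mean of 5 FPKM the 2021 higher genes in HepG2/metR became 1249 and the 2147 lower 1428. At 1.5-fold they were 3262 and 3301. Upper-quartile scaling moved the median change of all genes in HepG2/metR to 0.15. Depth limits MMP1 in every library and PLAT in the parental one. MMP2 was listed at 0 in both HepG2/metR libraries, which were estimated to hold more fragments than HepG2/wild. Its fold is therefore undefined without a pseudocount.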

Other observations

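ADAM and ADAMTS proteases, relatives of the metalloproteinases that TIMP3 also inhibits, were counted in the same way. Of 24 genes 11 were kept. In HepG2/metR 6 were at least 2-fold higher and 1 at least 2-fold lower, against 16.6% and 17.6% of all genes kept. The medians were 1.31 for the list and 0.015 for all genes kept. Apart from ADAM19, the higher genes were under 1 FPKM in HepG2/wild and passed the filter only through the HepG2/metR libraries. At a mean of at least 5 FPKM, 3 were higher and 0 lower, so the counts and the median depend on the filter. ADAMTS1, which cleaves versican and aggrecan, was listed at 0.0275 FPKM in HepG2/wild, 102 in HepG2/metR and 97.3 with oxamate. ADAMTS6 was listed at 0.657, 11.8 and 13.0 FPKM, and ADAM19 at 1.31, 13.7 and 15.97 FPKM. With oxamate 1 of the 11 passed 1.5-fold, upward, against 4.30% of all genes kept. It was ADAMTS10, at 0.155, 2.75 and 4.81 FPKM, named after its values were seen. ADAMTS12 joined it under total or upper-quartile scaling and with a pseudocount of 0.1 or none. Of 12 other proteases of the cell surface or lysosome, 6 were kept. In HepG2/metR 0 were at least 2-fold higher and 3 at least 2-fold lower, against 16.6% and 17.6% of all genes kept. Of these, HPN and DPP4 passed the filter only through HepG2/wild. HPN, hepsin, was listed at 30.6, 0 and 0 FPKM, DPP4 at 50.7, 0.146 and 0.214, and the lysosomal cathepsin CTSD at 218, 70.9 and 80.1. CTSB, at 171, 85.5 and 83.3 FPKM, and BMP1, at 6.95, 2.99 and 3.98 FPKM, lay just inside the limit with log2 changes of -1.00 and -0.99, while CTSL was at 102, 75.7 and 76.1 FPKM. With a pseudocount of 0.1 or median-of-ratios scaling both passed, giving 5 lower genes in this list.

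The genes around the EGF receptor, whose signal is known to raise PLAU transcription, were mixed. Of 13 ligands and feedback genes of the mitogen pathway 11 were kept. In HepG2/metR 3 were at least 2-fold higher and 2 at least 2-fold lower, against 16.6% and 17.6% of all genes kept. Of these, EREG passed the filter only through the HepG2/metR libraries. The ligands HBEGF and EREG were listed at 1.35, 30.3 and 28.98 FPKM and at 0.470, 17.6 and 12.7 FPKM. SPRED1, a feedback inhibitor, was listed at 4.10, 12.3 and 17.1 FPKM, whereas the feedback genes SPRY4 and DUSP6 were at 17.7, 4.30 and 3.55 FPKM and at 26.3, 9.24 and 6.13 FPKM. With oxamate 1 gene passed 1.5-fold in each direction, against 3.82% lower and 4.30% higher over all genes kept. They were DUSP5 downward and DUSP4 upward, both named after their values were seen and both under a mean of 5 FPKM. DUSP5 no longer passed under upper-quartile or total scaling. DUSP6 passed downward without a pseudocount. TGFA passed upward under upper-quartile or total scaling and with a pseudocount of 0.1 or none. These pseudocounts also put DUSP4 and SPRY2 past 2-fold in HepG2/metR.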
